A study of Mus musculus with 12 samples.

Results

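The ligands of the epidermal growth factor (EGF) receptor, the receptor with its partner ErbB2, and the feedback inhibitor Errfi1 were followed in a mouse thymic epithelial cell line given the dioxin TCDD. The members were 8 named genes, the ligands Ereg, Areg, Hbegf, Tgfa and Btc, the receptors Egfr and Erbb2, and Errfi1, and they were found as all probe sets whose platform symbol was one of these names. Of the 8 genes, 7 had a probe set, 16 in all, against 12394 genes with a probe set in the whole series. No probe set carried the symbol Areg in the platform table, so Areg was not analysed here. Of the 16 probe sets, 12, from 6 genes, passed the filter on low levels and were tested. Both probe sets of Btc, 1 of 3 of Tgfa and 1 of 5 of Egfr lay below it.

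EGF family ligands are made as membrane proteins and are cut loose by metalloproteinases of the ADAM family. They then bind the EGF receptor, which pairs with itself or with ErbB2 and signals through Ras and the MAP kinases. Several of the ligands, and Errfi1, which binds the receptor's kinase domain and blocks it, are themselves immediate early targets of that signal, so that one signal feeds both a forward and a braking loop. Thymic epithelial cells are known to carry the receptor and to respond to EGF and transforming growth factor alpha in culture.

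The study grew the ET line, labelled as fetal murine cortical thymic epithelium, to 80 to 90% confluence in medium with serum and gave it 5 nM TCDD or only the solvent, 1,4-dioxane, at 0.05% by volume. TCDD binds the aryl hydrocarbon receptor (AhR), which pairs with Arnt and binds DNA to switch on genes such as Cyp1a1, and the series asked what this activation changes. RNA was taken at 2, 4 and 6 h, with 2 arrays for TCDD and 2 for solvent at each time, 12 in all, from 1 cell line with no genetic change named. The groups are described as biological duplicates, but nothing says which step was repeated, so p-values measure the spread between these arrays, which may be technical.

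Label fields disagreed with each other on 3 arrays, namely the second TCDD array at 4 h, whose treatment field names the solvent, and both solvent arrays at 6 h, whose description and protocol give 4 h. Grouped by title, Cyp1a1 (probe set 1422217_a_at) had log2 levels of 9.3 to 11.1 on the 6 TCDD arrays and 4.0 to 5.5 on the 6 solvent arrays, with an average log2 change of 5.83 ± 0.26 (SE; limma adjusted p = 1.4e-05). The arrays also fell apart by the metallothioneins Mt1 and Mt2, proteins that bind heavy metals and are induced by metals and stress. On 5 arrays, called metallothionein-high here, Mt1 stood at 9.6 to 10.8 and Mt2 at 8.9 to 10.7, against 7.1 to 7.4 and 6.4 to 6.8 on the 7 metallothionein-low arrays. The metallothionein-high arrays were the second TCDD and the second solvent array at 2 h, the first TCDD array at 4 h, and the second TCDD and the second solvent array at 6 h. No solvent array at 4 h was among them. Hmox1, haem oxygenase of the stress response, was at 10.1 to 10.3 on the 3 metallothionein-high arrays at 2 and 4 h. On those of 6 h it was at 8.1 to 8.3, which touched the 7.4 to 8.1 of the 7 metallothionein-low arrays. In a planned clustering of the arrays, the largest cluster held all arrays of 2 h and both solvent arrays of 4 h. Both TCDD arrays of 4 h, and all arrays of 6 h, lay outside it. At 4 h treatment therefore cannot be told apart from this grouping. Of the markers of cortical thymic epithelium, 7 of 14 on the array passed the filter (Krt8, Foxn1, Ccl25, Dll4, Pax9, Cxcl12 and Ctsl), and 7 did not (Epcam, Cdh1, Krt18, Prss16, Ly75, Pax1 and Il7), whereas 16 of 16 markers of fibroblasts and mesenchyme passed. Among all probe sets, the cortical markers had a median level percentile of 33.6 and those of fibroblasts and mesenchyme one of 97.9. Levels of unlike probe sets can be compared only loosely, and the identity of the line is taken from the labels.

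No member passed the test for a TCDD effect when the 6 groups were fitted without a block. The test was limma's moderated test over 15844 probe sets, with Benjamini-Hochberg adjustment and a threshold of 0.05 on the adjusted p. At 2 h, 0 of 12 member probe sets passed, where 0.0189% of all tested probe sets did. The members' count was likewise 0 at 4 h (background 0.0126%), at 6 h (background 0.00631%) and for the average over the 3 times (background 0.0947%). With arrays of the same number paired as a replicate block at each time, the background was 1 probe set at 2 h (0.00631%, against 3 without the block) and 1 at 4 h (0.00631%, against 2 without it), and the members' count stayed 0 in these comparisons. None of the 12 had an unadjusted limma p under 0.05 in any of these 4 comparisons without a block. Of all 15844 tested probe sets, 236, 344, 340 and 533 did, at 2, 4 and 6 h and on average. The median log2 change of the 12 averaged over the times was 0.03, against 0 over all tested probe sets. The fit without a block lets the gap between metallothionein-high and metallothionein-low arrays count as replicate spread. Its few calls over all probe sets do not show that a member was unchanged. With the metallothionein set within each time as a block, 5, 3, 5 and 6 of the 12 had an unadjusted limma p under 0.05. Over all tested probe sets 987, 1780, 1673 and 2450 did there. The p-values of that fit can be too small, as set out for Ereg below.

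Ereg encodes epiregulin, a ligand of the EGF receptor and of ErbB4. At 2 h its log2 level (1419431_at) was 6.9 and 9.6 on the TCDD arrays and 4.9 and 8.5 on the solvent arrays. At 4 h it was 6.8 and 6.4 with TCDD, against 4.7 and 5.2 in solvent. At 6 h it was 6.7 and 8.0 with TCDD, against 5.9 and 6.9 in solvent. The groups did not overlap at 4 h, where both TCDD arrays lay above both solvent arrays, as did those of 7.95% of all tested probe sets. At 2 h and at 6 h they overlapped. Each group of these times held 1 metallothionein-high array, which was the higher of its pair every time.

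The log2 change of Ereg was 1.55 ± 1.10 (SE) at 2 h, 1.65 ± 1.10 at 4 h and 0.95 ± 1.10 at 6 h, with limma adjusted p-values of 1, 0.973 and 1. Averaged over the times it was 1.38 ± 0.63, a 2.61-fold higher level with a 95% interval of -0.03 to 2.80 in log2 (unadjusted p = 0.0548, limma adjusted p = 1). The change of the effect over time did not pass either (limma F-test, adjusted p = 1). The change at 2 h moved with the arrays kept: it was -0.25 without the first solvent array of that time, 0.20 without the second TCDD array, 2.90 without the first TCDD array and 3.35 without the second solvent array. Each of these leaves the metallothionein sets unequal between the treatments.

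Within arrays of the same time and the same metallothionein set, Ereg was higher with TCDD in 5 of 5 comparisons, a pattern shared by 2.21% of all tested probe sets. The differences were 2.0 (metallothionein-low) and 1.1 (metallothionein-high) at 2 h, 1.45 (metallothionein-low) at 4 h, and 0.8 (metallothionein-low) and 1.1 (metallothionein-high) at 6 h. With the metallothionein set within each time as a block, the average change of Ereg was 1.32 ± 0.16 (SE), and it passed (limma adjusted p = 0.0453). Ereg was the only 1 of the 12 member probe sets to pass there, where 0.454% of all tested probe sets did. That fit had 3 residual degrees of freedom, and the sets were drawn from these same arrays after their values were seen, so its p-values can be too small. With the replicate number within each time as the block, the average was 1.38 ± 0.16 and missed the threshold (adjusted p = 0.063). With 1 metallothionein block over all times it was 1.08 ± 0.37 (adjusted p = 0.66), and 0 of 12 members passed at 2 h (background 0.0631%), at 4 h (0.0442%), at 6 h (0.0505%) or on average (0.29%).

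**Figure D1:**
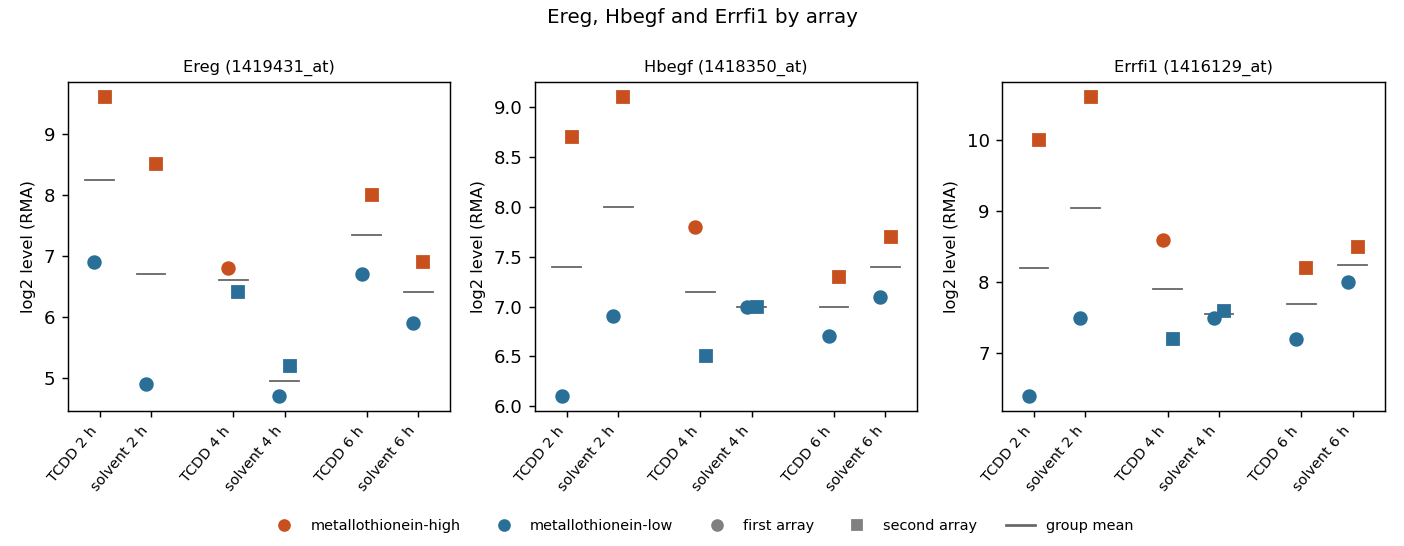
Log2 level of Ereg, Hbegf and Errfi1 (y axis, RMA, 1 probe set each) on every array, by treatment and time (x axis, TCDD left of solvent). Circles are first and squares second arrays, the line is the group mean, and colour gives the metallothionein set; the metallothionein-high arrays lie highest in their groups for all 3 genes.

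Hbegf encodes heparin-binding EGF-like growth factor, a ligand of the same receptor that is also known as the entry receptor for diphtheria toxin in primates. At 2 h its log2 level (1418350_at) was 6.1 and 8.7 with TCDD, against 6.9 and 9.1 in solvent. At 4 h it was 7.8 and 6.5 with TCDD, against 7.0 and 7.0 in solvent, and at 6 h 6.7 and 7.3 with TCDD, against 7.1 and 7.7 in solvent. The groups overlapped at every time. Its other probe set (1418349_at) ran from 4.9 to 7.2 with TCDD and from 5.4 to 7.9 in solvent over the 3 times. The average log2 changes were -0.28 ± 0.49 and -0.18 ± 0.50 (SE; limma adjusted p = 1 for both), and they were 0.15 and 0.20 without the first TCDD array at 2 h.

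Between arrays of the same time and metallothionein set, both probe sets of Hbegf were lower with TCDD in 5 of 5 comparisons, as were 2.71% of all tested probe sets. The differences ran from -0.8 to -0.4 for 1418350_at and from -0.7 to -0.2 for 1418349_at. With the metallothionein set within each time as a block, the averages were -0.50 ± 0.08 and -0.42 ± 0.07, and neither passed (limma adjusted p = 0.0684 and 0.0948). At 4 h the unblocked changes, 0.15 and 0.40, had the opposite sign to the differences within the metallothionein-low arrays, -0.50 and -0.30. The first TCDD array at 4 h was metallothionein-high and had no solvent array of its kind.

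Tgfa, transforming growth factor alpha, is the ligand that most resembles EGF in its use of the receptor. Its log2 level (1421942_s_at) was 5.1 and 5.4 with TCDD and 5.2 and 5.0 in solvent at 2 h. At 4 h it was 5.5 and 5.2 with TCDD and 5.1 and 5.3 in solvent, and at 6 h 4.8 and 5.0 with TCDD and 4.9 and 5.3 in solvent. The groups overlapped at each time, and all 12 arrays lay within 0.7 in log2, a range that the other tested probe set (1450421_at, 5.0 to 5.7) shared. The average log2 change was 0.03 ± 0.12 (SE) for the first, with a 95% interval of -0.23 to 0.30, and -0.05 ± 0.11 for the second, with an interval of -0.29 to 0.19. The differences within time and metallothionein set had mixed signs. The third probe set (1421943_at), at 3.5 to 4.0, had a mean below the filter.

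Btc, betacellulin, a ligand of the EGF receptor and ErbB4, had no probe set whose mean passed the filter. Its probe sets gave 2.9 to 3.1 (1421161_at) and 3.6 to 4.1 (1435541_at) over the 12 arrays, against a filter value of 3.98, and no test was made.

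Egfr encodes the receptor itself. Its brightest probe set (1460420_a_at) was at 7.3 and 7.1 with TCDD and 7.1 and 7.2 in solvent at 2 h, and at 7.3 and 7.0 with TCDD and 7.2 and 7.0 in solvent at 4 h. At 6 h it was at 7.1 and 7.0 with TCDD and 6.7 and 7.0 in solvent. These 12 values spanned 0.6 in log2, and the average change of 0.10 ± 0.10 (SE) had a 95% interval of -0.13 to 0.33. The probe sets 1451530_at and 1454313_at ran from 3.9 to 4.5 and from 4.4 to 5.0, with average changes of 0.02 ± 0.10 and 0.13 ± 0.14.

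The fourth tested probe set of Egfr (1424932_at) spread more than the others. At 2 h it gave 5.5 and 5.2 with TCDD and 5.2 and 5.5 in solvent. At 4 h it gave 4.4 and 6.1 with TCDD and 5.0 and 5.3 in solvent, and at 6 h 5.8 and 5.3 with TCDD and 5.9 and 5.2 in solvent. Both its lowest and its highest value came from the 4 h TCDD group, and the lowest was the metallothionein-high array. Its average change was 0.03 ± 0.27 (SE), with a 95% interval of -0.57 to 0.63. With the metallothionein set within each time as a block it was 0.32 ± 0.11, with an interval of 0.04 to 0.59, and 0.95 ± 0.22 at 4 h, and neither passed (limma adjusted p = 0.278 and 0.348). The blocked difference at 2 h and at 6 h was 0. The probe sets of Egfr differed in spread, and the platform table does not say which transcripts each one reads. The fifth (1432647_at, 3.6 to 4.2) was below the filter in its mean.

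Erbb2 encodes the partner receptor that binds no ligand of its own. Its log2 level (1424919_at) was 6.0 and 5.7 with TCDD and 6.1 and 5.4 in solvent at 2 h. It was 6.2 and 5.9 with TCDD and 6.0 and 6.0 in solvent at 4 h, and 6.1 and 6.0 with TCDD and 6.0 and 5.8 in solvent at 6 h. The lowest level was that of the metallothionein-high solvent array at 2 h, and the groups overlapped or touched at every time. The average change was 0.10 ± 0.14 (SE), with a 95% interval of -0.20 to 0.40.

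**Figure D2:**
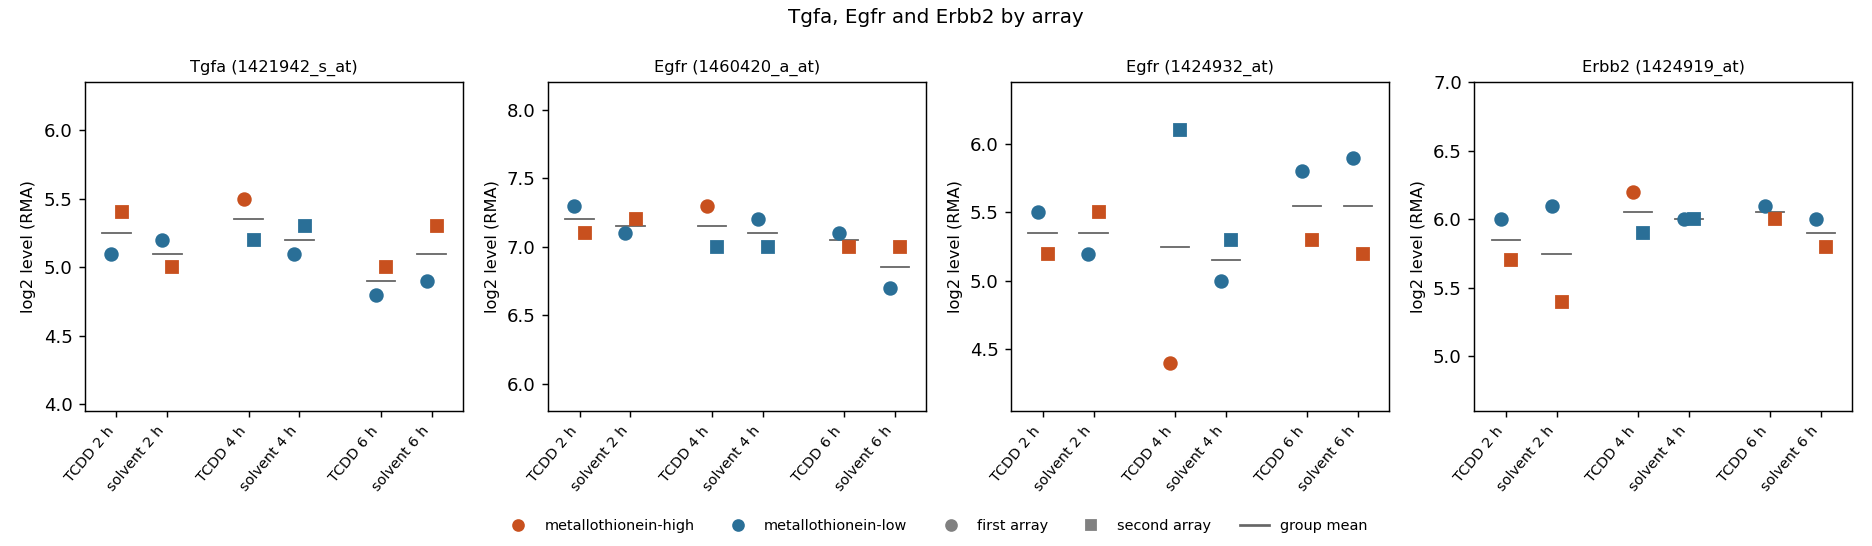
Log2 level (y axis, RMA) of 1 probe set of Tgfa, 2 of Egfr and 1 of Erbb2 on every array, by treatment and time (x axis, TCDD left of solvent), drawn as circles for first and squares for second arrays with the group mean as a line. Every y axis spans about the same log2 distance; Egfr 1424932_at spreads from 4.4 to 6.1 within the 4 h TCDD group, and the other 3 probe sets stay within 0.8.

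Errfi1, also called Mig6, is the feedback inhibitor of the receptor kinase. RefSeq (GRCm38.p6) gave it 2 start sites, and the 250 bases before each are shown because the gene is a textbook early target of the receptor and the starts differ in base composition. Capitals mark GCGTG, the core that AhR with Arnt binds, and TGACGTCA, the cAMP response element, each searched on both strands.
Errfi1 start 1, chr4:150853546-150853795, plus strand: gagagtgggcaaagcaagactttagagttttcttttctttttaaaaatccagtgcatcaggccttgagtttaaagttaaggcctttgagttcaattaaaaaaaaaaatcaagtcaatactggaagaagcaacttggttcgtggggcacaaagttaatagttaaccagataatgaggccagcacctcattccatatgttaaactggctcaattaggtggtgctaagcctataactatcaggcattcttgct
Errfi1 start 2, chr4:150854820-150855069, plus strand: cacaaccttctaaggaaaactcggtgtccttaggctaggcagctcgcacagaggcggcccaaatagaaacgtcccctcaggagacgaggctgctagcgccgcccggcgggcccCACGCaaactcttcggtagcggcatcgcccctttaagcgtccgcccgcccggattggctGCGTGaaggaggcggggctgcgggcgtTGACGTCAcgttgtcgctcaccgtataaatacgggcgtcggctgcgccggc
The first stretch had a GC content of 38.0% and neither motif. The second had a GC content of 64.8%, GCGTG or its complement CACGC at 2 places, the first bases being 137 and 78 bases before the start, and TGACGTCA at 1 place, 51 bases before it. Over 32851 RefSeq stretches of the same length, 28.2% held GCGTG and 1.55% held TGACGTCA. The AP-1 site TGANTCA and the metal response cores TGCACNC and TGCGCNC were at 0 places in both stretches of Errfi1, and were in 6.75%, 10.4% and 12.5% of all stretches. Among the other members, GCGTG was present before the starts of Tgfa (1 place) and Btc (2 places) and not before those of Areg, Egfr and Erbb2, and TGACGTCA was present before that of Areg (1 place). The metal response cores were present before the starts of Tgfa (TGCGCNC, 2 places), Btc (TGCACNC, 1 place, overlapping a GCGTG match) and Egfr (TGCACNC, 1 place). Ereg and Hbegf were not searched. These are matches of letters, and no binding was measured.

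The log2 level of Errfi1 (1416129_at) was 6.4 and 10.0 with TCDD and 7.5 and 10.6 in solvent at 2 h. It was 8.6 and 7.2 with TCDD and 7.5 and 7.6 in solvent at 4 h, and 7.2 and 8.2 with TCDD and 8.0 and 8.5 in solvent at 6 h. The groups overlapped at each time, and the spread at 2 h, 3.6 between the TCDD arrays and 3.1 between the solvent arrays, was several times the difference between the treatments. The other probe set (1419816_s_at) ran from 6.0 to 8.7 with TCDD and from 6.7 to 9.5 in solvent. The average log2 changes were -0.35 ± 0.67 and -0.32 ± 0.56 (SE; limma adjusted p = 1 for both). The averages were 0.25 and 0.13 without the first TCDD array, and 0.17 and 0.13 without the second solvent array.

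Both probe sets of Errfi1 were lower with TCDD in 5 of 5 comparisons within time and metallothionein set, again against 2.71% of all tested probe sets. For 1416129_at the differences were -1.1 (metallothionein-low) and -0.6 (metallothionein-high) at 2 h, -0.35 (metallothionein-low) at 4 h, and -0.8 (metallothionein-low) and -0.3 (metallothionein-high) at 6 h. Those of 1419816_s_at ran from -0.8 to -0.3. With the metallothionein set within each time as a block, the averages were -0.58 ± 0.11 and -0.52 ± 0.07, and neither passed (limma adjusted p = 0.105 and 0.0526). At 4 h the unblocked changes, 0.35 and 0.30, again had the opposite sign to the differences within the metallothionein-low arrays, -0.35 and -0.30.

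**Figure D3:**
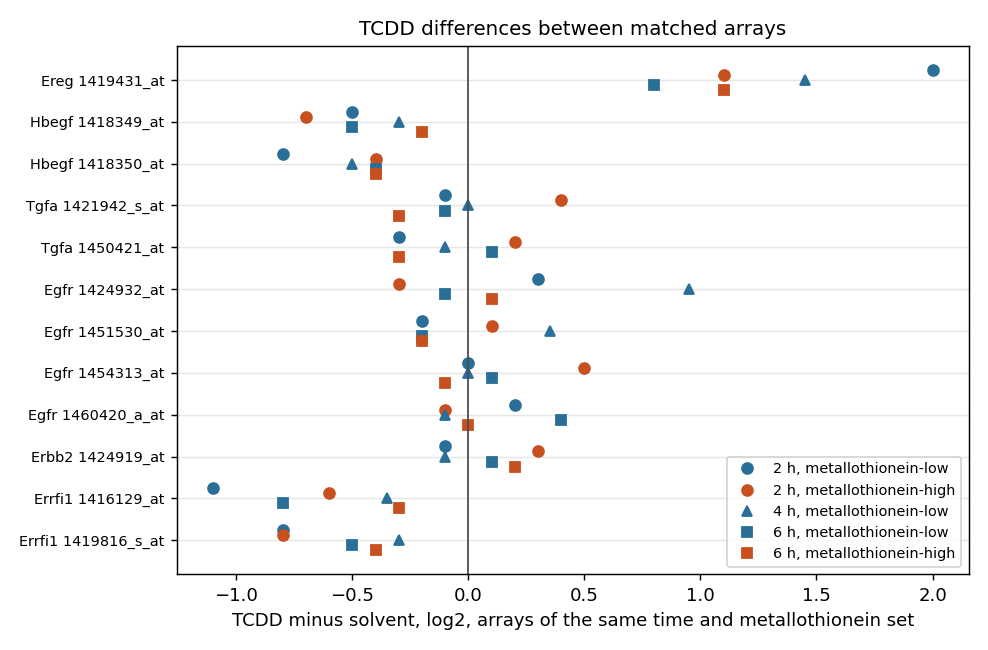
TCDD minus solvent in log2 (x axis) for the 12 tested member probe sets (y axis), with 1 point for each of the 5 comparisons of arrays of the same time and metallothionein set. Ereg lies right of 0 in all 5, both probe sets of Hbegf and of Errfi1 lie left of 0 in all 5, and those of Tgfa, Egfr and Erbb2 fall on both sides.

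The gap between metallothionein-high and metallothionein-low arrays was larger than the treatment differences for Errfi1, Hbegf and Ereg at 2 h. Metallothionein-high minus metallothionein-low, Ereg differed by 2.7 with TCDD and 3.6 in solvent at 2 h, by 0.4 with TCDD at 4 h, and by 1.3 with TCDD and 1.0 in solvent at 6 h. Errfi1 (1416129_at) differed by 3.6 with TCDD and 3.1 in solvent at 2 h, by 1.4 with TCDD at 4 h, and by 1.0 with TCDD and 0.5 in solvent at 6 h. Hbegf (1418350_at) differed by 2.6 with TCDD and 2.2 in solvent at 2 h, by 1.3 with TCDD at 4 h, and by 0.6 with TCDD and 0.6 in solvent at 6 h. All 3 genes were thus higher on the metallothionein-high array in each of these 5 pairs, with the widest gap at 2 h. Higher levels in all 5 pairs, whatever the time of the widest gap, were found for 7.56% of all tested probe sets. The difference between the 3′ and 5′ probe sets for actin, a sign of RNA quality, moved with the sets too: it was 0.5 to 0.6 on the 5 metallothionein-high arrays and 0.7 to 0.8 on the 7 others. The same difference for Gapdh did not separate the sets, at 0 to 0.1 on the metallothionein-high arrays and 0 to 0.2 on the others. What set the metallothionein-high arrays apart is not in the labels, and whether RNA quality had a part in the gaps between the sets was not tested. Over all arrays, Errfi1 (1416129_at) ran from 8.2 to 10.6 on the metallothionein-high arrays and from 6.4 to 8.0 on the others, and Hbegf (1418350_at) from 7.3 to 9.1 and from 6.1 to 7.1. Both probe sets of each of these genes separated the sets with no overlap, as did 1.98% of all tested probe sets, whereas Ereg overlapped (6.8 to 9.6 against 4.7 to 6.9). Tgfa (1421942_s_at, 5.0 to 5.5 against 4.8 to 5.3) and Egfr (1460420_a_at, 7.0 to 7.3 against 6.7 to 7.3) had nearly the same range in both sets. Another probe set of Egfr (1424932_at) ran lower on the metallothionein-high arrays, at 4.4 to 5.5 against 5.0 to 6.1, with overlap.

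Ordered by group mean, Ereg stood highest at 2 h with TCDD (8.25 ± 1.91, SD, n = 2) and then at 6 h with TCDD (7.35 ± 0.92). Next came 2 h in solvent (6.70 ± 2.55), 4 h with TCDD (6.60 ± 0.28), 6 h in solvent (6.40 ± 0.71) and 4 h in solvent (4.95 ± 0.35). Of these neighbours, only 6 h in solvent and 4 h in solvent had arrays that did not overlap. For Errfi1 (1416129_at) the order was 2 h in solvent (9.05 ± 2.19), 6 h in solvent (8.25 ± 0.35), 2 h with TCDD (8.20 ± 2.55), 4 h with TCDD (7.90 ± 0.99), 6 h with TCDD (7.70 ± 0.71) and 4 h in solvent (7.55 ± 0.07), and all neighbours overlapped. No member passed in the contrasts of TCDD at 4 h or 6 h with TCDD at 2 h, of solvent at 4 h or 6 h with solvent at 2 h, or of the TCDD effect between times, each with a count of 0 of 12 and a background of 0%. For these contrasts 0 of 12 member probe sets had an unadjusted p under 0.05 too. Of all 15844 tested probe sets, 219 and 1283 did for TCDD at 4 h and at 6 h against 2 h. In solvent 286 and 447 did, and 105 did for the TCDD effect between times.

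**Figure D4:**
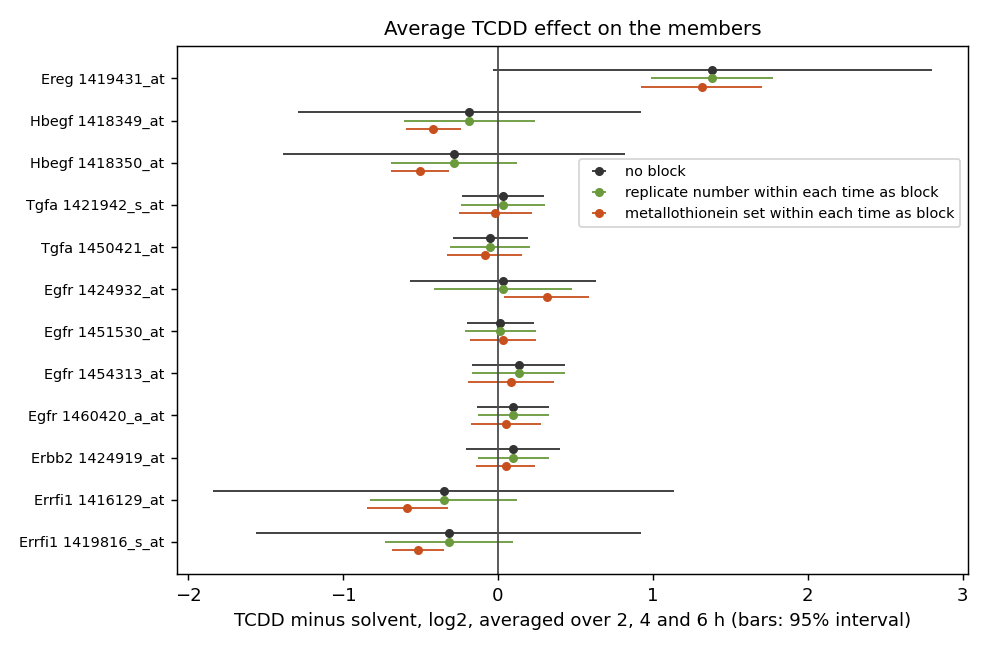
TCDD minus solvent in log2 averaged over 2, 4 and 6 h (x axis; points are estimates, bars 95% intervals) for the 12 tested member probe sets (y axis), without a block and with each of 2 blocks within each time. The unblocked intervals all include 0; Ereg, at 1.32 with the metallothionein block, is the 1 probe set past the adjusted threshold.

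The members whose levels varied most were set beside all other tested genes with 1 symbol by the root mean square difference of their mean-centred log2 levels over the 12 arrays, where 0 would be the same pattern. The nearest to Ereg was Ptgs2, inducible cyclooxygenase, at 0.36, followed by Sgk1, a serum- and glucocorticoid-induced kinase, at 0.60. Then came Ier3, an immediate early gene, at 0.67, Fosl1, an AP-1 subunit, at 0.70 and Klf5, a zinc finger transcription factor, at 0.74. The median over all tested probe sets was 1.42. Errfi1 (1416129_at) lay nearest to Dusp6, a phosphatase of ERK, at 0.39, then Atf3, a stress-induced transcription factor, at 0.44. Ankrd1 at 0.51, Pvr, the poliovirus receptor homologue, at 0.51 and Il6, the cytokine, at 0.52 followed. Here the median over all tested probe sets was 1.16. Errfi1 1419816_s_at shared Dusp6 (0.31), Pvr (0.35) and Il6 (0.37) among its nearest 5, beside Efnb2 (0.35) and Noct (0.35). Hbegf lay closer to Errfi1 (1416129_at) than any of these, at 0.33 for both probe sets. Ereg and Errfi1 (1416129_at) differed by 1.03, which is below the median over tested probe sets for each but farther than any of the genes named here. These distances describe 12 arrays that share treatment, time and metallothionein set.

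**Figure D5:**
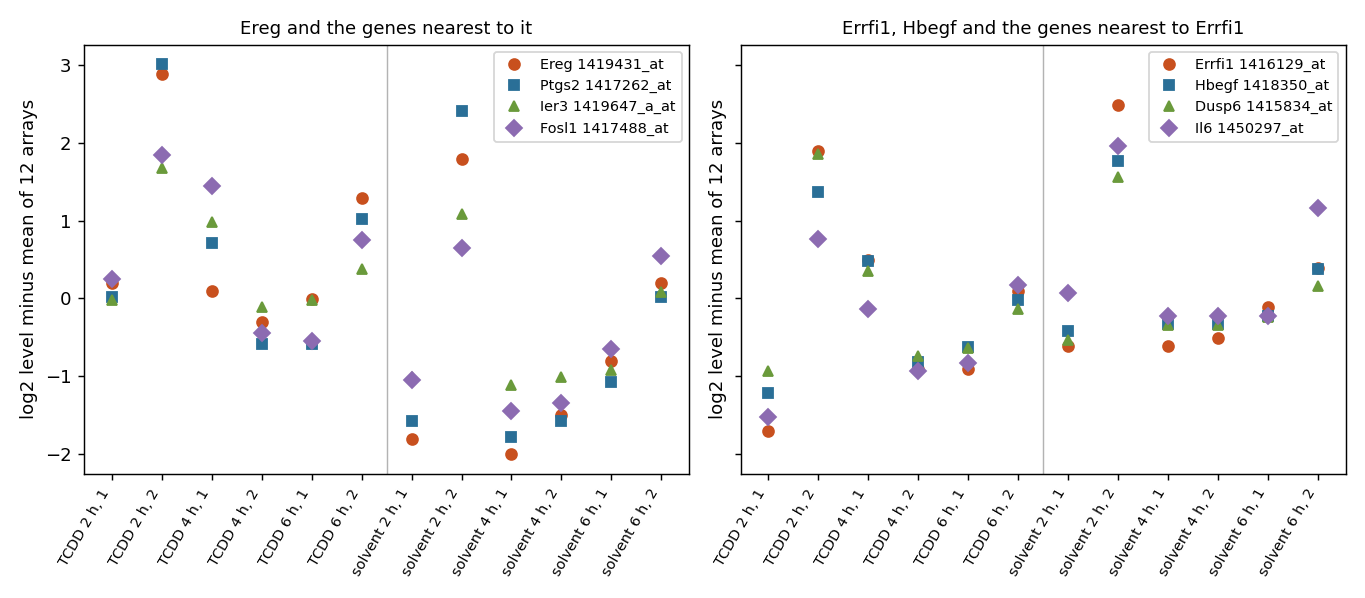
Log2 level minus the mean over 12 arrays (y axis) for Ereg with Ptgs2, Ier3 and Fosl1 (left) and for Errfi1 with Hbegf, Dusp6 and Il6 (right), for the 6 TCDD arrays and then the 6 solvent arrays (x axis). In both panels the second 2 h arrays of each treatment stand high; on the first 2 h TCDD array the left-hand genes lie higher than on the first 2 h solvent array, and the right-hand genes lie lower.

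Ptgs2 (1417262_at), whose pattern was closest to that of Ereg, had log2 levels of 7.2 and 10.2 with TCDD and 5.6 and 9.6 in solvent at 2 h. At 4 h it had 7.9 and 6.6 with TCDD and 5.4 and 5.6 in solvent, and at 6 h 6.6 and 8.2 with TCDD and 6.1 and 7.2 in solvent. Like Ereg, it was higher with TCDD in 5 of 5 comparisons within time and metallothionein set, as were 2.21% of all tested probe sets. The groups did not overlap at 4 h, where 7.95% of all tested probe sets lay above solvent in that way. Ptgs2 was picked for its likeness to Ereg on these same arrays, so sharing these traits is no separate support. Its average change was 1.20 ± 0.72 (SE) without a block and 0.98 ± 0.16 with the metallothionein set within each time as a block. Neither passed (limma adjusted p = 1 and 0.0745).

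The wider pathway was read through 5 lists, with each gene represented by its tested probe set of the highest mean. Of 8 other ligands and receptors of the family, 6 were on the array (Egf, Epgn, Nrg3, Nrg4, Erbb3 and Erbb4) and 0 passed the filter. Of 12 genes for shedding and trafficking of the ligands, 11 were tested and 0 passed in any TCDD comparison, with a median average log2 change of -0.03. The largest were Rhbdf1, a rhomboid-like protein of ligand release, at -0.25 ± 0.11 and Adam15, a metalloproteinase, at -0.15 ± 0.09. Cnih1, a cargo receptor of the secretory route, came next at 0.13 ± 0.12. Rhbdf1 was lower in 5 of 5 matched comparisons, as were 2.71% of all tested probe sets. Of 21 adaptors and members of the Ras-MAPK cascade, 14 were tested and 0 passed (median -0.06). The phosphoinositide 3-kinase subunits Pik3r1 and Pik3ca gave 0.67 ± 0.26 and 0.37 ± 0.28, and the adaptor Shc1 -0.20 ± 0.11.

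Of 23 genes that act as brakes on the receptor or on MAP kinases, 14 were tested and 0 passed (median 0.05, 9 above 0 and 5 below). Lrig1, a transmembrane protein that promotes degradation of ErbB receptors, had the lowest adjusted p of the list for the average without a block. Its log2 level (1449893_a_at) was 8.2 and 8.3 with TCDD and 7.3 and 6.9 in solvent at 2 h, 8.8 and 7.9 with TCDD and 7.7 and 7.8 in solvent at 4 h, and 8.0 and 8.0 with TCDD and 7.6 and 7.6 in solvent at 6 h. The groups of Lrig1 did not overlap at any of the 3 times, with 7.16%, 7.95% and 9.69% of all tested probe sets above solvent in that way at 2, 4 and 6 h. Lrig1 was higher in 5 of 5 matched comparisons, as were 2.21% of all tested probe sets. Its average change of 0.72 ± 0.15 (SE) still missed the threshold over all probe sets (limma adjusted p = 0.28). So did its change of 0.57 ± 0.09 with the metallothionein set within each time as a block (adjusted p = 0.0695). Dusp1, a MAP kinase phosphatase of the early response, gave -0.70 ± 0.25 (limma adjusted p = 1), and -0.73 ± 0.10 with that block (adjusted p = 0.0532). It was lower in 5 of 5 matched comparisons, as were 2.71% of all tested probe sets. Ptpn1, a tyrosine phosphatase, gave 0.28 ± 0.17.

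Of 22 genes known as transcriptional output of the receptor and MAP kinases, 20 were tested and 0 passed without a block (median average change 0.06). The unblocked median was 0.025 at 2 h, 0.30 at 4 h and -0.05 at 6 h. Only at 4 h did the TCDD group hold a metallothionein-high array and the solvent group none, so the 4 h median mixes treatment with array set. Beside Ptgs2, the genes with the largest average change were Fosl1 (1417487_at) at 1.10 ± 0.38 and Ier3 at 0.97 ± 0.41. Each was higher in 5 of 5 matched comparisons, as were 2.21% of all tested probe sets. With the metallothionein set within each time as a block, Fosl1 rose on average by 0.85 ± 0.08 (limma adjusted p = 0.0189, background 0.454%). At 2 h it rose by 1.30 ± 0.13 (adjusted p = 0.0449, background 0.133%), and its other probe set (1417488_at) passed in both as well. Phlda1, an early gene with a pleckstrin homology-like domain, rose by 0.53 ± 0.06 on average (limma adjusted p = 0.0417) and was also higher in 5 of 5 matched comparisons. Klf10, a transcriptional repressor, fell by 1.10 ± 0.10 at 2 h (limma adjusted p = 0.034). These 3 were named for passing in that fit, after their values were seen, and its limits are those given for Ereg.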

How the data were processed

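RNA from the ET line was measured on 12 Affymetrix mouse arrays. The deposited log2 values, 1 per probe set and array, were made by the authors with RMA, per the submitters' processing notes; its version and a genome build are not given in the sources used here. The method corrects background, makes the distributions of the arrays equal and joins the probes of a set. The deposited values have 1 decimal, run from 2.2 to 14.1 and share a median of 5.1, which hides any shift common to all genes, and differences near background are compressed. All 12 value columns were used and 0 left out. No depth applies to arrays, whose number, 2 per group, limits the precision.

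Of 22690 probe sets, 64 controls were left out. The 15844 whose mean reached the 30th percentile (log2 3.98) were tested with limma 3.58.1 in R 4.3.3: 6 group means over 12 arrays, 6 residual degrees of freedom, empirical Bayes variances, two-sided tests, Benjamini-Hochberg adjustment over all tested probe sets within each comparison. The steps were tested on simulated data. Genes were named only where the platform table gave 1 symbol (20380 probe sets). Figures were drawn with matplotlib 3.10.9.

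Named were all members, Cyp1a1 as the check of treatment, in each list the genes past the test and the 3 with the largest average change, and the 5 nearest genes for the 3 member probe sets with the widest range. Members and lists were chosen with earlier results of these data known.

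The differences between second and first arrays correlated between TCDD and solvent at 0.37, 0.16 and 0.71 at 2, 4 and 6 h, so same-numbered arrays deviated together least at 4 h. The main fit did not pair arrays. The numbers in the titles were treated as pairing the TCDD and solvent arrays only in the alternative fits with a replicate block. The metallothionein sets (mean of Mt1 and Mt2 above or below log2 8.8) were added after the values were seen. In all, 28 alternatives were run, 25 planned and 3 added. Promoter sequences are RefSeq's, build GRCm38.p6.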

Additional observations from a re-analysis of the deposited data

How the results depend on the processing

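Of 28 alternative settings, 25 planned and 3 added after the values were seen, 26 left the count of member probe sets past the test at 0 in the comparisons they could be fitted to. With the metallothionein set within each time as a block the count was 1 for the average over the times (Ereg) and 0 at 2, 4 and 6 h. Without the 5 metallothionein-high arrays it was 3, 2 and 2 at 2, 4 and 6 h and 3 on average, 2 for TCDD at 4 h and 2 for TCDD at 6 h against TCDD at 2 h, and 3 for solvent at 6 h against 2 h. That fit had 1 residual degree of freedom, from the pair of 4 h solvent arrays alone, whose rounded values are often tied, and it called 1785, 2014, 1717 and 2336 of all probe sets at 2, 4 and 6 h and on average, so its calls are not used. The replicate block within each time, with the numbers treated as pairing the arrays, changed no call of a member; the average of Ereg was 1.38 with it (adjusted p = 0.063).

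At 4 h, Hbegf 1418349_at (0.40) was -0.15 against the solvent arrays of all times, -0.33 with the metallothionein set as a block and -0.30 with the set within each time as a block or without the metallothionein-high arrays. Under the same 4 settings, Hbegf 1418350_at (0.15) was -0.32, -0.58, -0.50 and -0.50, Errfi1 1416129_at (0.35) was -0.38, -0.61, -0.35 and -0.35, and Errfi1 1419816_s_at (0.30) was -0.37, -0.55, -0.30 and -0.30. The 4 h TCDD group held 1 metallothionein-high array and the 4 h solvent group none.

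Leaving out each array in turn, the change of Ereg ran from -0.25 to 3.35 at 2 h, from 1.40 to 1.90 at 4 h, from 0.30 to 1.60 at 6 h and from 0.78 to 1.98 on average. For Hbegf 1418349_at it ran from -1.85 to 0.65 at 2 h, from -0.30 to 1.10 at 4 h and from -0.60 to 0.23 on average, and for Hbegf 1418350_at from -1.90 to 0.70, from -0.50 to 0.80 and from -0.72 to 0.15. For Errfi1 1416129_at it ran from -2.65 to 0.95 at 2 h, from -0.35 to 1.05 at 4 h and from -0.95 to 0.25 on average, and for Errfi1 1419816_s_at from -2.15 to 0.55, from -0.30 to 0.90 and from -0.77 to 0.13. For Hbegf and Errfi1 the sign turned at 2 h without the second solvent or the first TCDD array, and at 4 h without the first TCDD array. For Ereg it turned only at 2 h, without the first solvent array of that time (-0.25). A group left with 1 array was taken to vary like the others.

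Over all probe sets, the counts of 3, 2, 1 and 15 at 2, 4 and 6 h and on average ran from 0 to 9, 1 to 59, 0 to 7 and 10 to 24 when 1 array was left out, and were 10, 7, 8 and 46 with the metallothionein set as a block, 21, 2, 16 and 72 with it within each time, and 12, 9, 15 and 26 with all 6 solvent arrays as 1 control group. They were 0 at each time on the 4 arrays of that time alone, and 8 on average with variances not moderated. The planned block from clustering the arrays was not run, since each group lay wholly in 1 of its 2 sets. All arrays of 2 h and both solvent arrays of 4 h were in the larger set. Both TCDD arrays of 4 h and all arrays of 6 h were in the other. At 4 h treatment thus cannot be told apart from this array set, also among the metallothionein-low arrays. Depth does not apply; low levels, as for Egfr 1451530_at, are compressed.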
